A study of Gallus gallus with 2 samples.

Results

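A set of 7 germ cell genes was followed: DDX4, DAZL, GTSF1, DDX25, MARF1, PIWIL1 and MAEL, which encode RNA regulators of germ cells and proteins of the piRNA pathway. Probe sets were taken by gene symbol: every chicken probe set annotated with only 1 symbol was kept if that symbol was one of these 7. This gave 12 probe sets of 37693 chicken probe sets, for 7 of 13008 named genes, and 0 probe sets that list several genes named any of them. The samples were germinal discs, the spot on top of the yolk where the oocyte keeps its nucleus, from yellow follicles ranked F5 to F7 of laying hens at 25 weeks of age. Bx hens had their bursa of Fabricius, the organ where birds form B cells, removed surgically on day 17 to 18 of incubation, and the series describes such birds as deficient in IgY, the yolk antibody. Control hens formed the other group. Whether they underwent a sham operation is not given in the sources used here. Each group was 1 pool of RNA from 9 discs of 3 birds on 1 Affymetrix Chicken Genome Array, so there were 2 arrays, no replicate and no test across samples. Differences are therefore given without p-values, and the spread between birds was not measured.

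Germ cells carry RNA granules in which helicases, RNA-binding proteins and nucleases store, translate or destroy messenger RNA. In the piRNA pathway, PIWI proteins bind short RNAs (piRNAs) that guide them to transposon transcripts, which they cut or silence, and Tudor-domain proteins assemble the machinery around them. The oocyte of a yellow follicle is a growing germ cell whose disc lies against a layer of granulosa cells, so the collected region can hold RNA of both.

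A MAS5 signal was read per probe set on a linear scale, and differences are log2 ratios, Bx over Control. The background floor was the 95th percentile of the 746 probe sets that target neither chicken nor control sequences, a signal of 36.4 on the Bx array and 42.6 on the Control array. Each gene was represented by its brightest probe set. Genes above both floors were split by mean log2 signal into 4 brightness groups of 2542 genes, from group 1, the dimmest, to group 4. The log2 ratios of probe sets that share a gene had an SD of 0.44, 0.37, 0.29 and 0.24 in groups 1 to 4. A gene was grouped by its brightest probe set, while the SD also took in its dimmer probe sets above both floors. It can therefore be wider than the spread among probe sets of that brightness alone. This SD measures how far probes of these arrays disagree and holds nothing about differences among birds.

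On their brightest probe sets the measured germ cell genes did not all lie on the same side, and those on the lower side had signals near background. GTSF1 and DDX4 had the higher signal in the Bx pool, DDX25 and the brightest probe set of MARF1 the lower, PIWIL1 and DAZL were near their Control signals, and MAEL was not above background in either pool. Of the 6 genes above both floors, 4 differed by at least 1.5-fold (0.58 on the log2 scale), 2 higher and 2 lower. This split takes MARF1 on its brightest probe set. On its next probe set the split was 3 higher and 1 lower, and with means over probe sets 3 genes were left, 2 higher and 1 lower. Over all 10168 genes above both floors 7.74% differed by as much in either direction, 4.11% higher and 3.63% lower. That share is strongly tied to brightness: it was 22.9% in group 1, 6.22% in group 2, 1.49% in group 3 and 0.354% in group 4. Of the 4 differing genes, DDX4, DDX25 and MARF1 lay in group 1 and GTSF1 in group 2. None of the 6 reached 2-fold, which 1.06% of all genes did. The median log2 ratio was 0.13 over the 6 measured genes and 0.01 over all genes. The plot of signals by probe set shows each pair of values against the floors.

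**Figure D1:**
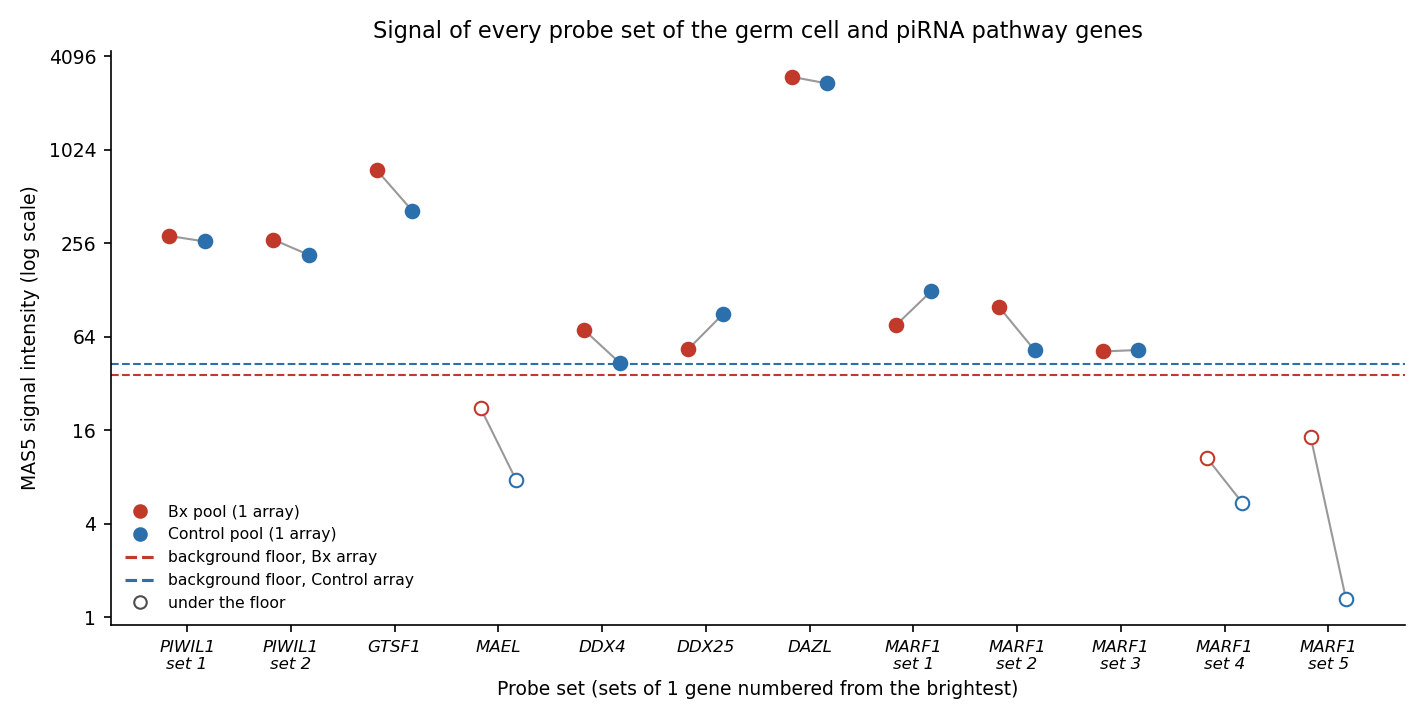
MAS5 signal intensity on a log scale for each of the 12 probe sets of the 7 genes, with the Bx array (red) left of the Control array (blue) and the background floor of each array as a dashed line of the same colour. GTSF1 stands well above the floors with 757 in the Bx pool and 416 in the Control pool. DDX4, DDX25 and the brightest 3 MARF1 sets lie above the floors but within a few-fold of them. MAEL and the remaining, dimmest MARF1 sets lie under them (open circles).

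Of the piRNA pathway genes, PIWIL1 encodes a PIWI protein, the piRNA-guided slicer itself. Its brightest probe set, of the _s_at type that can match more than 1 transcript, gave 286 in the Bx pool and 264 in the Control pool, a log2 ratio of 0.12. The other probe set gave 271 in the Bx pool and 216 in the Control pool, a log2 ratio of 0.33. Both were slightly higher in the Bx pool, with a mean log2 ratio of 0.22 ± 0.15 (SD, 2 probe sets). This mean is smaller than the SD of 0.37 between probe sets of one gene in brightness group 2.

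GTSF1 encodes a small zinc finger protein that binds PIWI proteins and, in mouse and silkworm, speeds their cleavage of targets. Its 1 probe set read 757 in the Bx pool and 416 in the Control pool, 1.82-fold higher in the Bx pool with a log2 ratio of 0.86. The difference is larger than the SD of 0.31 over the genes of brightness group 2, an SD that includes any real differences, and larger than the SD of 0.37 between probe sets there. In that group 4.17% of genes exceeded 1.5-fold on the higher side. Its signal was well above background, at 20.8 times the floor on the Bx array and 9.76 times the floor on the Control array. No second probe set was available to measure how well it repeats.

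MAEL encodes maelstrom, which acts in piRNA formation and transposon silencing in mouse and fly. Its 1 probe set read 22.2 in the Bx pool and 7.69 in the Control pool. Both signals were under the floor of their array, so no ratio is given, and whether MAEL differed was not detectable at this signal.

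DDX4 is the vertebrate Vasa, a DEAD-box helicase of the germ granule and the usual marker of chicken germ cells. Its probe set read 70.6 in the Bx pool and 43.6 in the Control pool, 1.62-fold higher in the Bx pool with a log2 ratio of 0.70. The Control signal was 1.02 times its floor, at the edge of what counts as measured, while the Bx signal was 1.94 times its own. Log2 ratios in brightness group 1 had an SD of 0.49 over genes, and 11.5% of genes exceeded 1.5-fold in this direction. With 16 added to each signal the log2 ratio was 0.54, short of 1.5-fold.

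DDX25 is another DEAD-box helicase, known in mouse for its role in spermatid mRNA export and translation. Its probe set read 53.3 in the Bx pool and 90.5 in the Control pool, 1.70-fold lower in the Bx pool with a log2 ratio of -0.76. The signals were 1.46 times the floor on the Bx array and 2.12 times on the Control array. In that brightness group 11.4% of genes exceeded 1.5-fold on the lower side. The 2 helicases thus stood on opposite sides, each with 1 probe set close to background.

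DAZL encodes an RNA-binding protein that promotes translation of germ cell messengers. Its probe set read 3027 in the Bx pool and 2743 in the Control pool, 1.10-fold higher in the Bx pool with a log2 ratio of 0.14. It was the one of the 7 genes in brightness group 4, at 83.2 times the floor on the Bx array and 64.4 times on the Control array. Its difference was inside the SD of 0.15 over the genes of that group and inside the SD of 0.24 between probe sets.

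MARF1 encodes a meiosis regulator and RNA nuclease that, in mouse oocytes, removes messenger RNA and restrains retrotransposons. It had 5 probe sets, and they disagreed. The brightest read 75.8 in the Bx pool and 126 in the Control pool, a log2 ratio of -0.73. The second in brightness read 99.1 in the Bx pool and 52.4 in the Control pool, a log2 ratio of 0.92. The third read 51.6 in the Bx pool and 52.7 in the Control pool, a log2 ratio of -0.03. These values run both ways, and their mean log2 ratio was 0.05 ± 0.83 (SD, 3 probe sets), so the direction of MARF1 was not settled. The remaining 2 probe sets were under the floor on both arrays, with 10.6 and 14.5 in the Bx pool and 5.48 and 1.32 in the Control pool. The second and the third are _s_at probe sets, and which transcripts they match was not examined here.

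Taken over probe sets in place of genes, 9 of the 12 were above both floors, of which 3 passed 1.5-fold on the higher side and 2 on the lower side. Of these, all but that of GTSF1 lay in brightness group 1, and those of MARF1 stood on opposite sides, at -0.73 and 0.92. Among all 22948 chicken probe sets above both floors, 10.7% differed by that much, 5.37% higher and 5.35% lower. These shares were not matched for brightness. The genes were proposed with results of these arrays known, so the excess of their shares over the background is a description of the choice as much as of the genes. The plot of ratio against brightness places the 6 measured genes among all others.

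**Figure D2:**
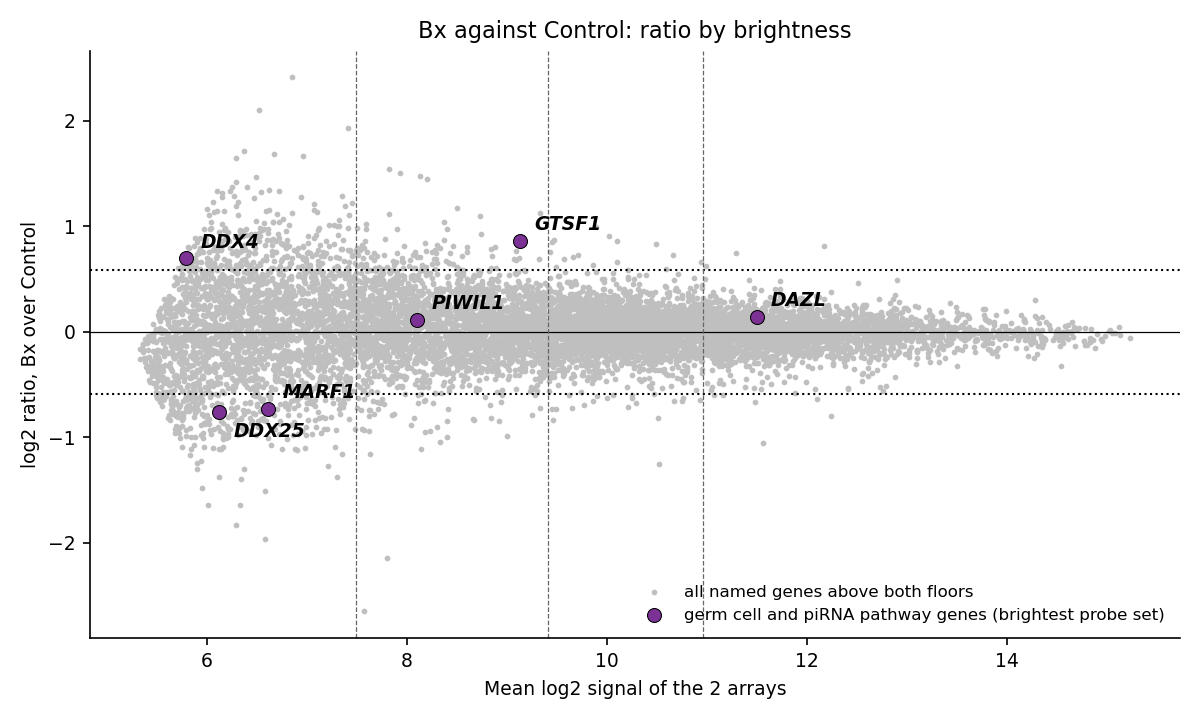
Log2 ratio of Bx over Control against the mean log2 signal of the 2 arrays for the 10168 named genes above both floors (grey) and the 6 measured germ cell genes (purple), with dotted lines at 1.5-fold and dashed lines between the 4 brightness groups. DDX4 (0.70), DDX25 (-0.76) and MARF1 (-0.73) lie in the wide cloud of dim genes, and DAZL (0.14) lies inside the narrow cloud of bright genes. GTSF1 (0.86) lies high in group 2, where 4.17% of genes exceeded 1.5-fold on that side.

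The other piRNA pathway genes had a median log2 ratio near 0. Of 28 other pathway genes listed, 19 had a probe set by symbol, 13 were above both floors, 5 were above the floor on 1 array and 1 on neither. Of the 13 measured, 7 had a positive log2 ratio and 6 a negative one, with a median of 0.00012 against 0.01 over all genes. Past 1.5-fold there were 2, which is 15.4% of the 13 against 7.74% of all genes. Both were lower in the Bx pool, as were 3.63% of all genes. MOV10L1 was 1 of them and lay in brightness group 1, where 11.4% of genes were lower by as much. TDRD1, a Tudor-domain scaffold that docks PIWI proteins, read 161 in the Bx pool and 255 in the Control pool (log2 ratio -0.66). All 3 of its probe sets were lower in the Bx pool, with a mean of -0.36 ± 0.30 (SD). MOV10L1, the helicase that feeds precursor RNA into piRNA processing in mouse, read 74.8 in the Bx pool and 118 in the Control pool (log2 ratio -0.66). Of its 2 probe sets above both floors only this one was lower, and their mean was -0.31 ± 0.49 (SD).

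The brightest other piRNA pathway genes differed little. PRMT5 and WDR77, the methyltransferase and partner that mark PIWI proteins for Tudor binding, had log2 ratios of 0.11 and 0.09. PARN, an exonuclease related to the piRNA trimmer, had -0.06, and TDRD3, a Tudor-domain protein, had -0.21. Among genes measured in 1 pool, TDRKH, a mitochondrial Tudor protein, read 32.5 in the Bx pool, under the floor. In the Control pool it read 57.1, where the floor was 42.6. Taken against the Bx floor, TDRKH was lower in the Bx pool by at least 1.57-fold. Of its 3 probe sets, 0 were above both floors, so the bound rests on signals near background. The bounds of the other 4 genes were below 1.5-fold. TDRD9 was lower in the Bx pool by at least 1.29-fold, and PNLDC1, GPAT2 and TDRD6 were higher there by at least 1.35-fold, 1.33-fold and 1.08-fold. RNF17 was under both floors.

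The other germ cell and oocyte RNA regulators also had a median near 0. Of 39 listed, 30 had a probe set by symbol and 27 were above both floors, 13 with a positive and 14 with a negative log2 ratio, at a median of -0.03. The 3 under both floors were DND1 and BOLL, germ cell RNA-binding protein genes, and IGF2BP1. Past 1.5-fold was 1 of the 27, which is 3.70% against 7.74% of all genes, shares not matched for brightness. This was IGF2BP3, an mRNA-binding protein gene, at 344 in the Bx pool and 207 in the Control pool (log2 ratio 0.73). Its 3 probe sets had a mean of 0.26 ± 0.51 (SD) and 2 of them were higher. The 4 brightest of the other members had ratios near 0. YBX1, a Y-box mRNA-packaging protein gene, read 14205 in the Bx pool and 14041 in the Control pool (log2 ratio 0.02), EIF4ENIF1, a repressor of cap-dependent translation, had -0.03, DAZAP1, which binds DAZ-family proteins, had -0.05, and IGF2BP2 had -0.07. The plot of gene lists sets these lists beside the cell type markers.

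**Figure D3:**
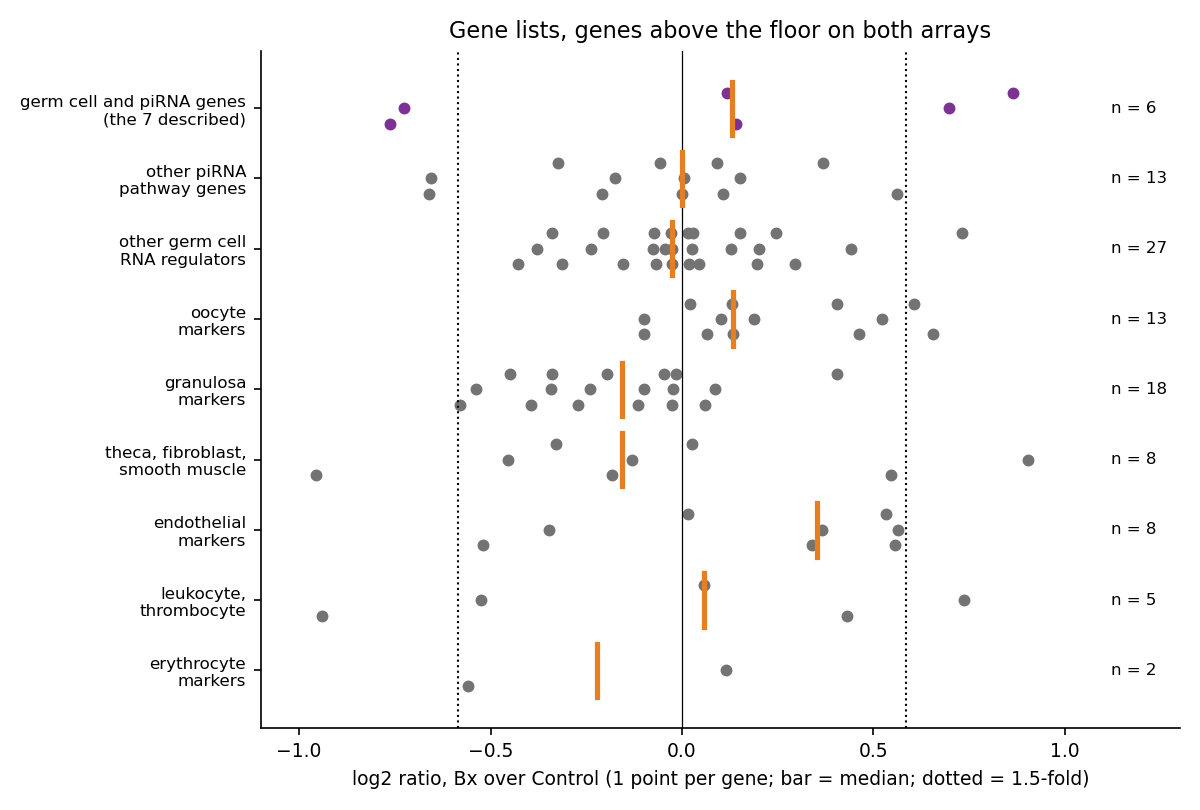
Log2 ratio of Bx over Control for each gene above both floors (points), by list, with the list median as an orange bar, dotted lines at 1.5-fold and the number of genes at the right. The 6 measured germ cell genes spread from -0.76 to 0.86, whereas most points of the 2 lists of related genes lie between the dotted lines, with medians of 0.00012 and -0.03. The lists were not matched for brightness, and DDX4, DDX25 and MARF1 lay in the dimmest group.

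The tissue label was checked against marker lists. All 13 oocyte markers with a probe set were above both floors, including STAG3, a meiotic cohesin gene (2084 in the Bx pool and 1942 in the Control pool), and ZP2, an egg coat gene (1952 in the Bx pool and 2089 in the Control pool). They had a median log2 ratio of 0.13, and 11 of 13 were higher in the Bx pool, against 5328 of all 10168 genes. Past 1.5-fold were 2, the egg coat genes ZP4 at 0.66 and ZP1 at 0.61. Both lay in brightness group 1, where 11.5% of genes exceeded 1.5-fold on that side. The Control signal of ZP1, 44.8, was just above the floor of 42.6, and whether the disc itself makes ZP1 was not examined. The summed signal of the 13 oocyte markers was 6396 in the Bx pool and 6021 in the Control pool. All 18 granulosa markers were also above both floors, among them ZP3 (35348 in the Bx pool and 36001 in the Control pool) and FOXL2 (19164 in the Bx pool and 20540 in the Control pool). Their median was -0.16, with 15 of 18 lower in the Bx pool, against 4840 of all 10168 genes. Of the 18, 0 were past 1.5-fold on the brightest probe set, and the summed signal was 135490 in the Bx pool and 147576 in the Control pool. As means over their probe sets, INHBB (-0.65) and NR5A2 (-0.66) were past 1.5-fold on the lower side. No other granulosa marker passed it as a mean, in either direction. In such mixed material fewer cells of a type and less RNA per cell cannot be told apart, and the part that this balance played in the germ cell genes was not tested.

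Markers of other cell types were in part under the floors. Of 14 theca, fibroblast and smooth muscle markers 8 were above both floors, with a median of -0.16 and a summed signal of 2712 in the Bx pool and 2733 in the Control pool. Past 1.5-fold were CYP17A1, an androgen-forming enzyme of the theca, at 0.90 and PDGFRA at -0.96. They are 25.0% of the 8, against 7.74% of all genes. Both lay in brightness group 1, where 22.9% of genes differed by as much. PDGFRA read 44.6 in the Bx pool, where the floor was 36.4. Another 2 genes, under the floor in the Bx pool, were lower there, ACTA2 by at least 2.0-fold and DCN by at least 1.59-fold. CYP19A1 was above the floor only in the Bx pool, at 37.5, and read 4.46 in the Control pool. Its bound, 0.88-fold against the Control floor, gave no direction. The brightest were COL1A2, which made up about as much of each sum as all the others, at 1364 in the Bx pool and 1340 in the Control pool and PDGFRB at 396 in the Bx pool and 434 in the Control pool. Of 10 endothelial markers 8 were above both floors, with a median of 0.35, 0 past 1.5-fold and sums of 3689 in the Bx pool and 3571 in the Control pool, of which EGFL7 gave 2876 in the Bx pool and 2844 in the Control pool. ESAM, next in brightness, read 204 in the Bx pool and 141 in the Control pool. The measured endothelial markers other than EGFL7 all lay in brightness group 1. ERG was at 0.56 on its brightest probe set but past 1.5-fold as a mean, 0.70 over 2 probe sets, both higher in the Bx pool. Of 12 leukocyte and thrombocyte markers 5 were above both floors, with a median of 0.06 and sums of 2791 in the Bx pool and 3659 in the Control pool. CD74 made up most of both sums, with 2212 in the Bx pool and 3182 in the Control pool, and CXCR4 read 397 in the Bx pool and 294 in the Control pool, while PTPRC, the pan-leukocyte marker, was under both floors. Past 1.5-fold were C1QC at 0.74 and TLR4 at -0.94, which is 40.0% of the 5 against 7.74% of all genes. Both lay in brightness group 1. C1QC read 46.3 in the Control pool and TLR4 37.4 in the Bx pool, each just above its floor. Among genes measured in 1 pool CD3E was higher in the Bx pool by at least 1.69-fold. CD79B and C1QA were lower there by at least 1.52-fold and 1.5-fold. Of all 13008 named genes 1139 had only such a bound, and how many of these bounds passed 1.5-fold was not counted. Of 3 erythrocyte markers 2 were measured, none past 1.5-fold, HBAD at 144 in the Bx pool and 133 in the Control pool and HBE at 73.9 in the Bx pool and 109 in the Control pool. As a check of RNA quality, the signal at the 3' end of EF1A was 1.64 times that at the 5' end in the Bx pool and 1.91 times in the Control pool. For GAPDH this ratio was 1.05 in the Bx pool and 1.07 in the Control pool, and for actin, where the Bx pool was the higher, it was 1.5 in the Bx pool and 1.48 in the Control pool. The part of these in the results was not tested.

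The ratios of 5 of the 6 measured genes kept their sign under every processing setting that gave them a value. For DDX4, DAZL, GTSF1 and DDX25, with 1 probe set each, part of this was fixed in advance. Settings of the floor and of the probe set summary could only return their reported value or no value. Only the scalings and the pseudocount could change their ratios. The pseudocount, added to both signals, could not turn a sign, so only the scalings could. GTSF1 lay between 0.83 and 0.86, DAZL between 0.12 and 0.15, PIWIL1 between 0.05 and 0.33, DDX4 between 0.54 and 0.80, and DDX25 between -0.79 and -0.62. The exception was MARF1, which was at -0.73 on its brightest probe set, 0.92 on the next and 0.05 as a mean over probe sets, and between -0.76 and -0.62 under the other settings that gave it a value. The plot of settings shows each of these values.

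**Figure D4:**
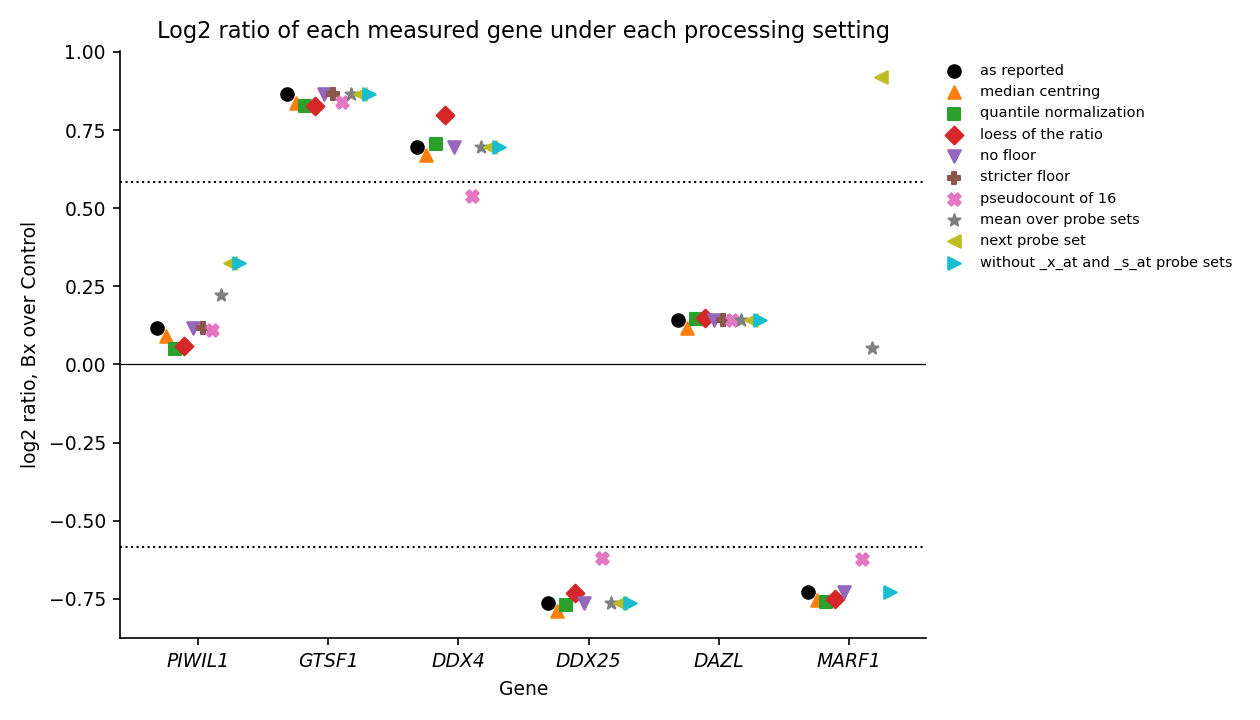
Log2 ratio of Bx over Control of each of the 6 measured genes as reported (black circles) and under the other processing settings (coloured symbols), with dotted lines at 1.5-fold. GTSF1 stays near 0.86 and DAZL near 0.14, DDX4 crosses below the 1.5-fold line with the pseudocount, and MARF1 is at 0.92 on its next probe set and 0.05 as a mean over probe sets.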

How the data were processed

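The data were 1 Affymetrix Chicken Genome Array for each group, labelled from 100 ng of pooled total RNA, per the labels' protocols. The deposited values are linear signal intensity per probe set, which the authors computed by MAS5, per the submitters' processing notes. The sources used here give neither its version nor its scaling target. After trimming 2% at each end, the deposited intensities averaged 500.1 on each array, so a change in total mRNA would not show. Signals were taken to log2 without a pseudocount in Python 3.11.15 with pandas 2.3.3 and numpy 2.4.6. Control probe sets were left out. Of the chicken probe sets, 27166 had 1 symbol in GEO's platform annotation, 177 several and 10350 none, and for 98.8% of the first the gene ID was found in RefSeq's table of GRCg7b. Named genes are the 7 germ cell genes with all probe sets, the genes past 1.5-fold and the 4 brightest others of 2 pathway lists, and the 2 brightest of each marker list. Genes with a bound only or under both floors, and PTPRC, and markers past 1.5-fold, were named after their values were seen. With 2 arrays no likeness of pattern between genes can be measured. The genes and lists were chosen with earlier results of these data known. The number of arrays limits the precision. Ratios were recomputed under 10 settings (other scalings, floors, pseudocount, probe set summaries and a 2-fold threshold), and the calculation was tested on simulated data. The simulation gave all probe sets of a gene the same change, and the same noise at every brightness. It therefore did not cover the wider spread of dim genes or probe sets that disagree.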

Additional observations from a re-analysis of the deposited data

How the results depend on the processing

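Signal over background limits several values: DDX4, DDX25 and MARF1 lie near the floor and MAEL under it, and with 1 array per group no setting measures variation between birds. No paired analysis was possible because each group has 1 array and no test was made. The log2 ratio of MARF1 turned to 0.054 as the mean over probe sets and to 0.92 on its next probe set, by construction of those settings from its other probe sets. The median over the germ cell genes was then 0.51 with the next probe sets, and between 0.10 and 0.51 over all 9 settings for it, against 0.13 as reported. With a stricter floor at the median of the chicken probe sets (86.6 on the Bx and 85.0 on the Control array) 3 genes and 4 of their probe sets were left, DDX4, DDX25 and MARF1 had no value, and 1 gene and 1 probe set, GTSF1 in both cases, were past 1.5-fold. The log2 ratios of the 3 genes left were all positive, at 0.86 for GTSF1, 0.14 for DAZL and 0.12 for PIWIL1. At 2-fold there were 0 genes and 0 probe sets. With no floor 8 of 12 probe sets were past 1.5-fold, which adds 3 that are under background on both arrays. The median of the other piRNA pathway genes lay between -0.05 and 0.00012 and that of the other RNA regulators between -0.05 and 0.02, so their signs depended on the setting. Added after seeing the data, the same settings gave medians of -0.19 to -0.07 for granulosa markers, 0.10 to 0.19 for oocyte markers and -0.01 to 0.03 for all genes. The log2 ratio of a gene was taken to have moved when it differed by more than the SD between probe sets in its brightness group. For a list the limit was the SD between probe sets over all brightness groups, 0.32, divided by the root of the list size. A count was taken to have moved when it changed by more than 1.5-fold. A gene past 1.5-fold whose sign turned was called reversed.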

Other observations

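DDX4 and DDX25 belong to the DEAD-box helicase family, which also holds helicases of splicing, ribosome assembly and translation. Of 29 genes on the array with a symbol starting DDX, a list chosen after the data were seen, 27 were above both floors. Their median log2 ratio was -0.03, with 11 positive and 16 negative, and 2 were past 1.5-fold, 7.41% against 7.74% of all genes. Those 2 were DDX4 at 0.70 and DDX25 at -0.76. Both lay in brightness group 1, the dimmest, where 22.9% of all genes differed by as much. DDX18, at -0.28, was the only other measured gene of the list in that group. These counts take the brightest probe set of each gene. DDX42 was at 0.21 on that probe set but past 1.5-fold as a mean, 0.68 ± 0.66 (SD, 2 probe sets, both higher in the Bx pool). The broadly expressed DDX3X read 17331 in the Bx pool and 16357 in the Control pool (log2 ratio 0.08), and DDX5 read 14210 in the Bx pool and 15341 in the Control pool (-0.11). DDX43, another germ cell helicase gene, was under the floor in the Bx pool at 14.5 and read 52.3 in the Control pool, which makes it lower in the Bx pool by at least 1.44-fold.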
